A study of Homo sapiens with 23 samples.

Results

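ELF3, ELF5, EHF and SPDEF are the epithelial members of the ETS family of transcription factors, and their chromatin loops were described in T47D, a cell line established from human breast cancer. A loop belonged to a gene when either of its 5 kb end bins overlapped the gene body widened by 10 kb on each side. By this rule 17 of 7075 loops listed for the library labelled T0 (0.240%) and 21 of 9591 listed for the library labelled T30 (0.219%) lay at the 4 genes. The loops came from HiChIP, which enriches ligated chromatin contacts through an antibody, which the labels give as one to the progesterone receptor (PR). The cells were kept without serum before hormone, and the T30 library is also labelled PR5020, while R5020 is a synthetic progestin. The labels give neither a dose nor a time unit for these libraries, and no deletion, transgene or clone for the line. Each condition had 1 library out of the 23 samples of the series, so a difference between T0 and T30 has no replicate check and no p-value.

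ETS factors bind DNA through a shared domain that recognises a GGAA core. ELF5 drives the formation of milk-secreting alveoli downstream of progesterone and prolactin in the mammary gland, and ELF3, EHF and SPDEF act in the differentiation of epithelia, SPDEF in secretory cells above all. A promoter can be brought near distant regulatory DNA by looping, and HiChIP lists pairs of regions that contact each other more often than their distance predicts.

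The genes lie at 3 places in GRCh38. ELF3 (gene ID 1999) occupies chr1:202010587-202017183 on the plus strand. ELF5 (gene ID 2001, minus strand, chr11:34478791-34513794) and EHF (gene ID 26298, plus strand, chr11:34621093-34663288) are neighbours whose bodies are 107 kb apart. SPDEF (gene ID 25803) lies at chr6:34537802-34556329 on the minus strand. EHF has start sites at 34624257 and 34632566 in the RefSeq table, 8.31 kb apart.

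The 250 bases before each start site whose bin held a listed loop end are shown, because the lists differed in which of these bins their loops reached. They are RefSeq sequence of GRCh38.p14, written 5′ to 3′ on the gene's strand, with capitals on each GGAA (or TTCC, its reverse complement) and on each forkhead motif TGTTTAC (or GTAAACA). The windows are chr1:202010337-202010586 for ELF3, chr11:34511725-34511974 for ELF5, chr11:34632316-34632565 for the second EHF start and chr6:34556330-34556579 for SPDEF.
ELF3: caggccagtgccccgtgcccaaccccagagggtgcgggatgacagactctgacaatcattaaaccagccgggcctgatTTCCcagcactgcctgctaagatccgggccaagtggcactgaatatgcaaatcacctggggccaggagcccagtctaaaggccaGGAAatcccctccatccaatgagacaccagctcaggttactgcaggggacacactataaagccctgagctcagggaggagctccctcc
ELF5: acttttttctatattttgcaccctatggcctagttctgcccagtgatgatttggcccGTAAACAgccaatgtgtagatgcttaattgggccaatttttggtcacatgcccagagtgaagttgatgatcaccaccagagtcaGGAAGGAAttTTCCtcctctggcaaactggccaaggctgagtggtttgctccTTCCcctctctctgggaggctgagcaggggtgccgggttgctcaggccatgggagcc
EHF: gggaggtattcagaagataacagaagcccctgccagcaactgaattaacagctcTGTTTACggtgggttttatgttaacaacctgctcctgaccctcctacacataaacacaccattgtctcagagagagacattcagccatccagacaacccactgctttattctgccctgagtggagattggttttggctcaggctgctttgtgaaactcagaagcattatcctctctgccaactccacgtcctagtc
SPDEF: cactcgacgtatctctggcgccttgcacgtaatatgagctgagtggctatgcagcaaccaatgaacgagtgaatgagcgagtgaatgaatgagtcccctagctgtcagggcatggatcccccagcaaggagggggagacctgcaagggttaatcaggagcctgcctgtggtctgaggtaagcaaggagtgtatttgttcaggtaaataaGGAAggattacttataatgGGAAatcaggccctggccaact

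On both strands together, the ELF5 window held 4 GGAA matches, ELF3 and SPDEF held 2 each, and the second EHF start held 0. The longer form GGAAG, which overlaps GGAA, occurred 2 times at ELF5 and 1 time at SPDEF. The forkhead motif TGTTTAC, bound by FOXA1 among others, occurred 193 bases before the ELF5 start and 196 bases before the second EHF start, and the GATA motif AGATAA occurred 236 bases before the latter. Of 22131 windows of this length before RefSeq starts, 92.5% held GGAA, 67.2% GGAAG, 2.45% TGTTTAC and 7.09% AGATAA. A steroid receptor palindrome (ACANNNTGT, in 3.43% of windows), its hexamer (AGAACA, in 9.83%) and a grainyhead motif (AACNNGTT, in 2.79%) had no match in the 5 windows of the 4 genes. These matches describe letters in a window and are not binding sites.

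All 4 genes had at least 1 loop in each library. Over 19970 protein-coding genes, 27.3% had a loop at the widened body in T0, 32.2% in T30 and 17.9% in both. EHF went from 2 loops to 13, ELF5 from 7 to 2, ELF3 from 7 to 4 and SPDEF from 1 to 2. Summed contacts, the read pairs joining the bins of each loop, went from 24 to 173 at EHF, from 95 to 23 at ELF5, from 174 to 72 at ELF3 and from 18 to 27 at SPDEF. These sums are not scaled, and all listed loops together held 127457 contacts in T0 and 135538 in T30. More loops in T30 than in T0 were listed at 20.8% of the 19970 genes and fewer at 15.4%, so SPDEF's change in loops is of a common kind. A gain as large as EHF's or larger was seen at 0.21% of genes, a loss as large as ELF5's or larger at 0.731%, and one as large as ELF3's or larger at 2.8%. The median difference over all genes was 0 loops, but only 8299 of the 19970 had a loop in either library. Among genes with a loop the median difference was 1.

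**Figure D1:**
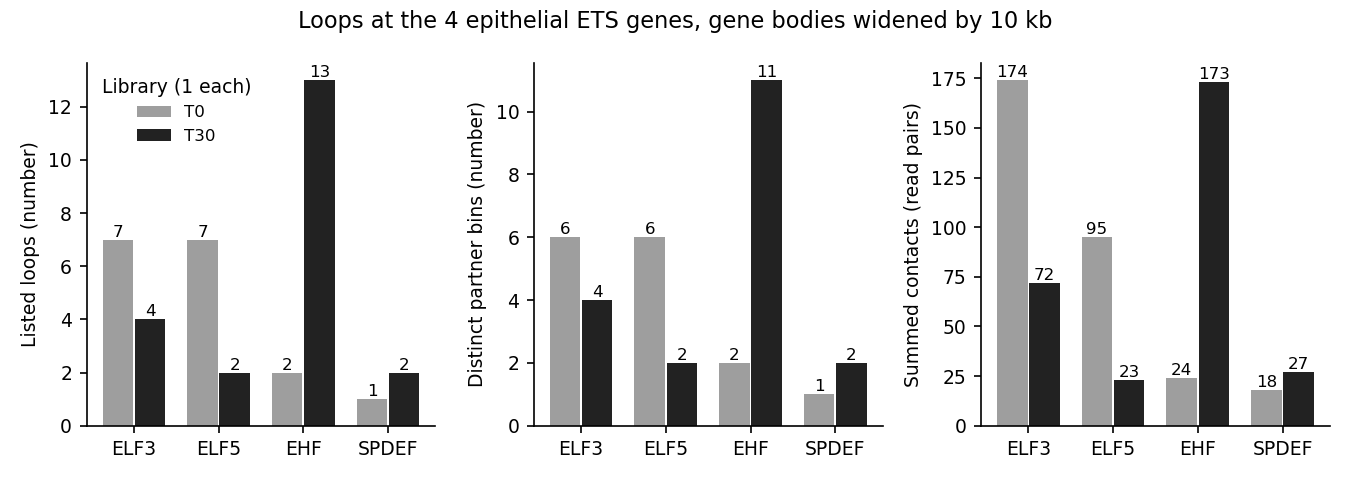
Loops, contacts and partner bins (vertical axes, counts) for each gene in T0 and T30; each bar is 1 library. EHF has 2 loops in T0 and 13 in T30, whereas ELF5 has 7 and 2, ELF3 7 and 4, and SPDEF 1 and 2.

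**Figure D2:**
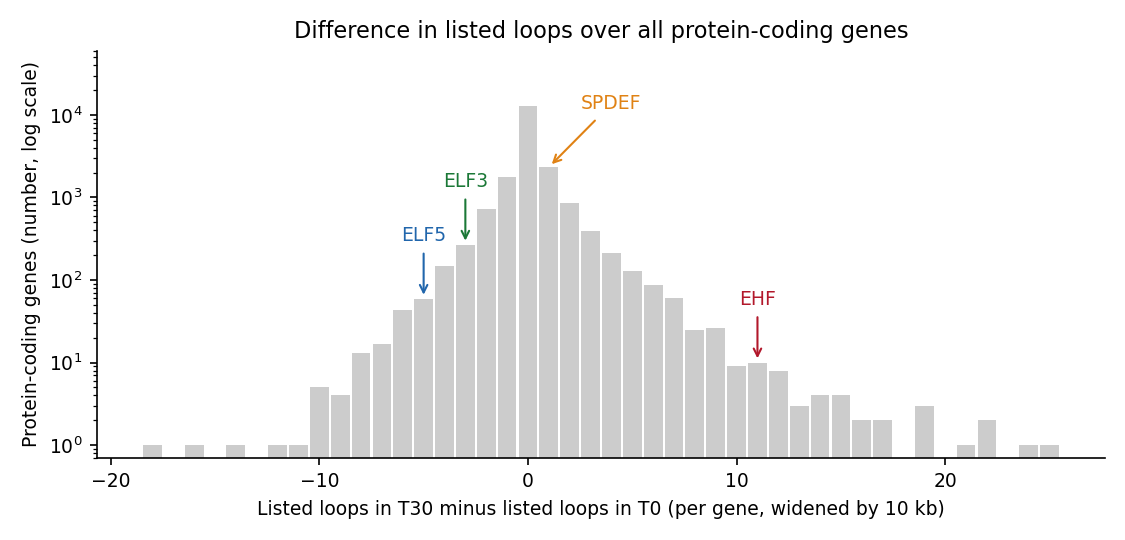
Number of protein-coding genes (vertical axis, log scale) by the difference in listed loops, T30 minus T0 (horizontal axis, loops), over 19970 genes; the labelled bars hold the 4 genes. EHF lies at 11 and ELF5 at -5, and the axis leaves out 1 gene.

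The shares of listed loops rest on few loops. EHF held 0.0283% of listed loops in T0 (95% exact binomial interval 0.00342 to 0.102%) and 0.136% in T30 (0.0722 to 0.232%). For ELF5 the shares were 0.0989% (0.0398 to 0.204%) and 0.0209% (0.00253 to 0.0753%). ELF3 had the same share as ELF5 in T0 and 0.0417% (0.0114 to 0.107%) in T30. The intervals overlapped between T0 and T30 at each gene, which is not a test of a difference, and they cover counting error only. They also treat loops as independent, although 9 of EHF's 13 T30 loops share 1 bin.

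The lists also differed in the distances they hold, which bears on each of these counts. T0 listed 574 loops under 20 kb and T30 listed 0. From 20 to under 100 kb, T0 listed 1292 loops and T30 5483. At 100 kb or more, T0 listed 5209 and T30 4108. The T0 list had a median span of 190 kb and the T30 list of 80 kb, and the loops at the 4 genes had medians of 130 and 90 kb. Of EHF's loops, 8 of 13 in T30 and 0 of 2 in T0 spanned 20 to under 100 kb. With only loops of 100 kb or more, EHF went from 2 to 5, a gain reached or exceeded by 1.2% of genes. ELF5 went from 7 to 1, a loss reached or exceeded by 0.411% of genes. Most T0 loops of ELF5 were longer than 300 kb, where the lists still differed. At 300 to under 400 kb T0 listed 796 loops and T30 346, and at 400 to under 600 kb 807 and 314. How far the difference in span between the lists contributed to these changes was not tested.

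**Figure D3:**
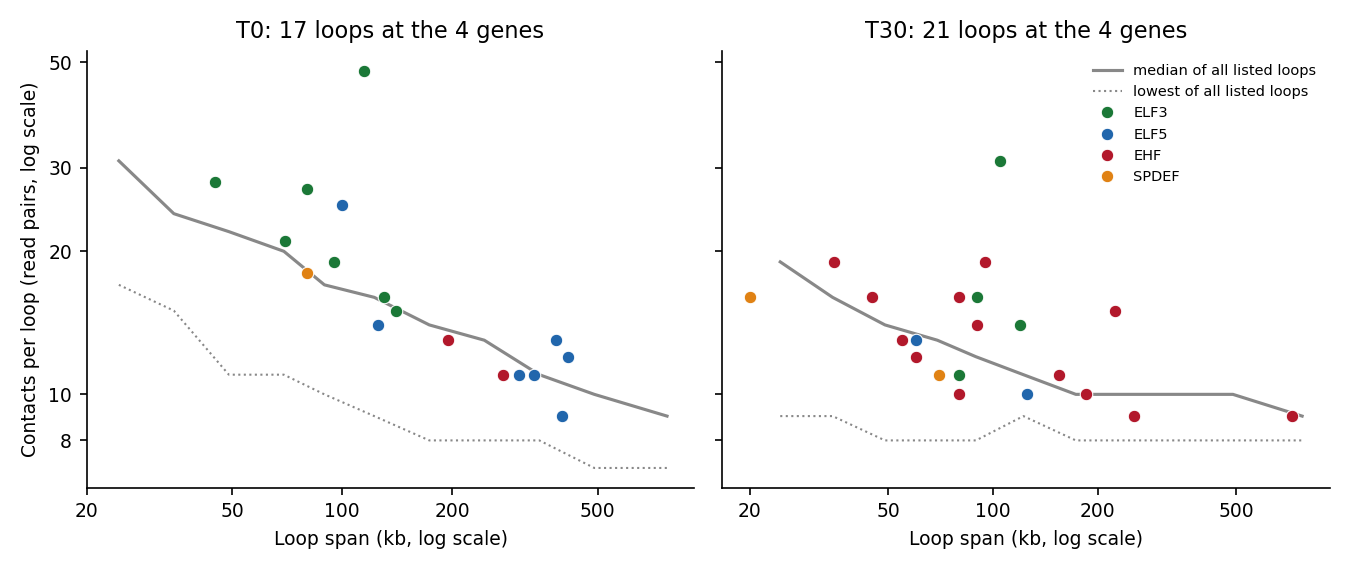
Contacts (vertical axis, read pairs, log scale) against span (horizontal axis, kb, log scale) for the loops of each gene in T0 and T30; each point is 1 loop, and the solid and dotted lines are the median and the lowest contacts of all listed loops by span. The T30 loops of EHF sit at spans of 35 to 725 kb, and the T0 loops of ELF5 at 100 to 415 kb.

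The strongest listed contact of the 4 genes was at ELF3, from the region of its start to a bin at 202115001 on chromosome 1, which lies 2916 bp short of GPR37L1, a gene for a receptor of glia. In T0 the end nearer ELF3 was the bin at 202000001, which overlaps RNPEP, an aminopeptidase gene, and the loop had 48 contacts over 115 kb (q = 2.13e-23). In T30 the end was the bin that holds the ELF3 start, with 31 contacts over 105 kb (q = 2.69e-21). These loops had more contacts than 99.8% of T0 and 99.4% of T30 loops of 100 to 200 kb. In the authors' merging, this contact lay in a cluster with 462 contacts in T0 and 339 in T30. The ranges of the cluster cover 35 bin pairs in T0 and 56 in T30. By the deposited fraction, 18 and 23 of these pairs belonged to the cluster.

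Of the other 6 ELF3 loops in T0, 5 are given here. The RNPEP bin at 202000001 was joined to 202130001 at GPR37L1 with 16 contacts. The start bin was joined to 202055001 with 28 contacts, to 202080001 with 21 and to 202090001 with 27. A bin beyond the gene, at 202020001, was joined to 202115001 with 19. In T30 the start bin was joined to 202100001 with 16 contacts, to 202115001 as above and to 202130001 with 14, and a bin before it, at 202005001, to 202085001 with 11. The start bin thus carried 3 loops in each library, none with identical bins, with 76 contacts in T0 and 61 in T30. The drop in listed loops at ELF3 lay in the flank: the bin at 202000001 went from 3 loops to 0. With the gene body alone ELF3 had 3 loops in each library. However, the T0 loops from 202000001 to 202115001 and to 202130001 were not without T30 counterparts. Their cluster ranges overlapped those of the T30 loops from the start bin to the same partner bins, and they were matched to them.

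**Figure D4:**
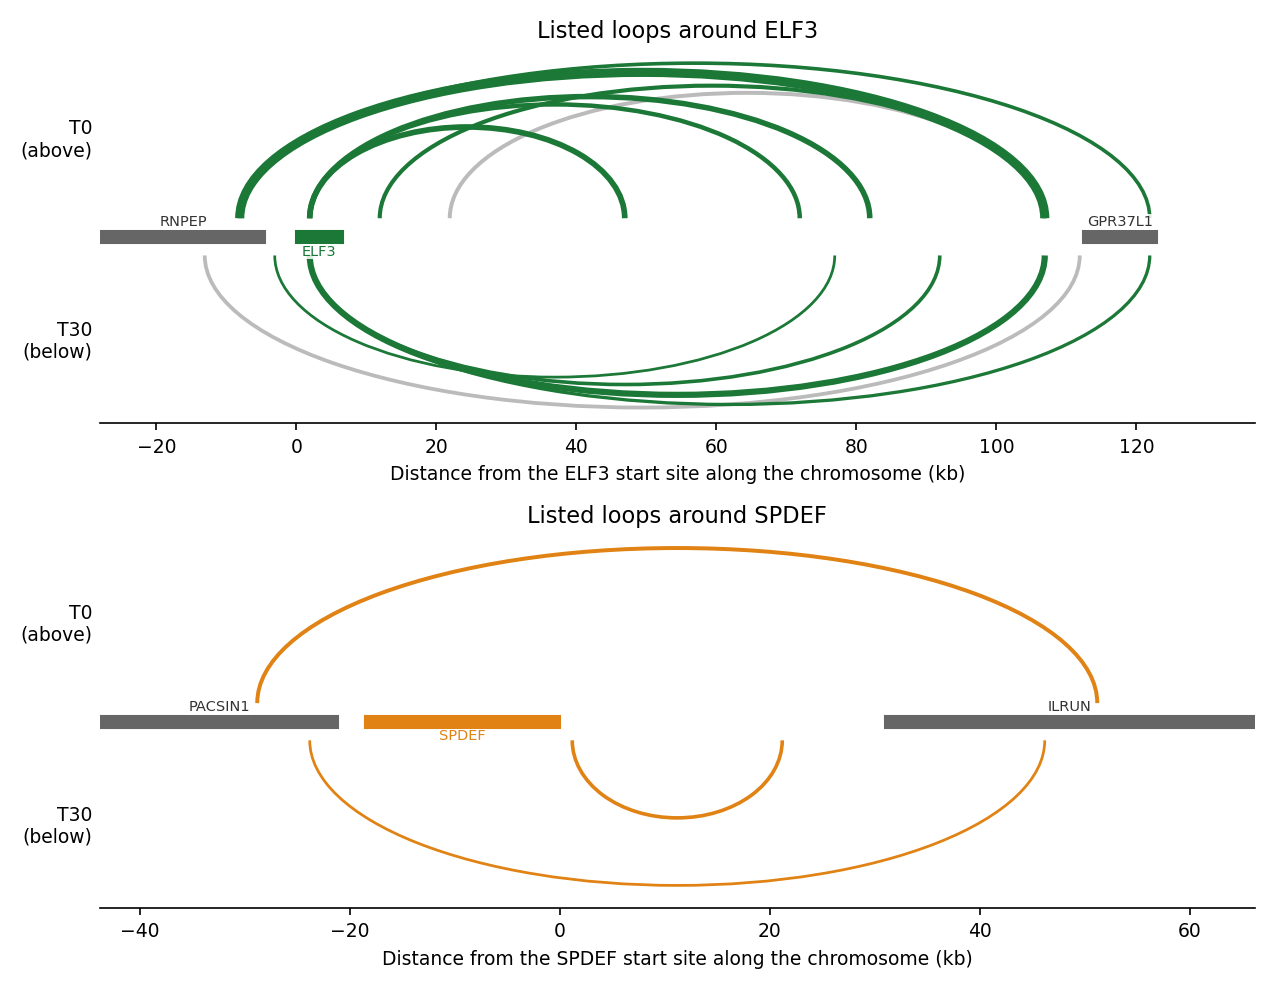
Loops at ELF3 and SPDEF drawn as arcs against distance from the gene's start site in kb (horizontal axis), T0 above the line and T30 below it; arc width grows with contacts, arc height with span, and grey arcs are other loops. Loops that end past GPR37L1 are not drawn. At ELF3 the widest of the arcs drawn in each library ends at the same bin short of GPR37L1, with 48 contacts in T0 and 31 in T30.

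At ELF5 the T0 loops led far to both sides. On the ABTB2 side, the bin at 34465001 over CAT, the catalase gene, was joined to 34365001, which lies 6990 bp from ABTB2, with 25 contacts over 100 kb (q = 4.48e-09). The gene's own bins were joined to that bin with 14 contacts over 125 kb, and to bins inside ABTB2 with 11 contacts over 305 kb and 11 over 335 kb. On the far side of EHF, they were joined to APIP, a gene of the methionine salvage pathway, with 9 contacts over 400 kb, 12 over 415 kb and 13 over 385 kb, the last from the start bin. In T30 the 125 kb loop was listed again with identical bins and 10 contacts. The start bin's single T30 loop had 13 contacts and went to a bin at 34570001, 60 kb away, between ELF5 and EHF. No ELF5 loop reached APIP in T30, against 3 in T0.

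EHF had 2 loops in T0, from 34625001 to APIP at 34900001 with 11 contacts over 275 kb and from 34665001 to 34860001 with 13 over 195 kb. In T30, 9 of its 13 loops ended at the bin at 34665001, which begins 1712 bp beyond the end of EHF and had 1 loop in T0. Summed contacts of this bin's loops went from 13 to 126. Its T30 partners towards ELF5 were 34570001 with 19 contacts over 95 kb (q = 1.70e-08), 34585001 with 16, 34610001 with 13 and the second EHF start bin with 19. Towards APIP they were 34755001 with 14, 34820001 with 11, 34850001 with 10, APIP itself at 34890001 with 15 over 225 kb, and 35390001 in SLC1A2, a glutamate transporter gene, with 9 over 725 kb. The 95 kb loop had more contacts than 91.0% of T30 loops of 50 to 100 kb.

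The bin of the second EHF start went from 0 loops to 4 and from 0 to 56 contacts. Besides the 19 contacts with the bin beyond the gene's end, it was joined to 34585001 with 16, to 34570001 with 12 and to APIP at 34885001 with 9 over 255 kb. The remaining T30 loop, from 34650001 inside the gene to 34570001, had 10 contacts. The bin of the first EHF start held 0 loops in both libraries. Of the 13 T30 loops, 12 had no T0 counterpart and 1 had both bins within 10 kb of a T0 loop. A lack of a counterpart was common in T30. Of all 9591 T30 loops, 1389 were matched one to one by cluster ranges, and 2225 with both bins within 10 kb. At the spans of the 13 loops, the lowest contacts listed in T0 ranged from 8 to 12 and the T0 medians from 9 to 24. None of the 13 was below that lowest value, and 10 were below that median. Whether the T0 list would have held contacts of this size was not tested. With the gene body alone EHF went from 1 loop to 5, a gain reached or exceeded by 1.87% of genes.

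ELF5 and EHF were not joined directly: 0 loops connected their widened bodies in either library. In T0 loops of both genes ended in APIP, at 34900001 for EHF and at 34890001, 34895001 and 34905001 for ELF5. In T30 ELF5 and EHF shared a partner bin, the one at 34570001, which lies 46092 bp before EHF. It had 2 loops in T0, to 34890001 in APIP with 14 contacts and to 34860001 with 11, and neither gene's window was at the other end. In T30 it had 6 loops and 76 contacts in all, of which 1 went to the ELF5 start bin and 3 to EHF. Its loop to 34890001 in APIP was listed again in T30, with 9 contacts. The neighbouring partner at 34585001 had 3 loops in each library. In T0 all of them led towards APIP. In T30 a pair of them led to EHF with 16 contacts each, and the other led to APIP with 9.

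**Figure D5:**
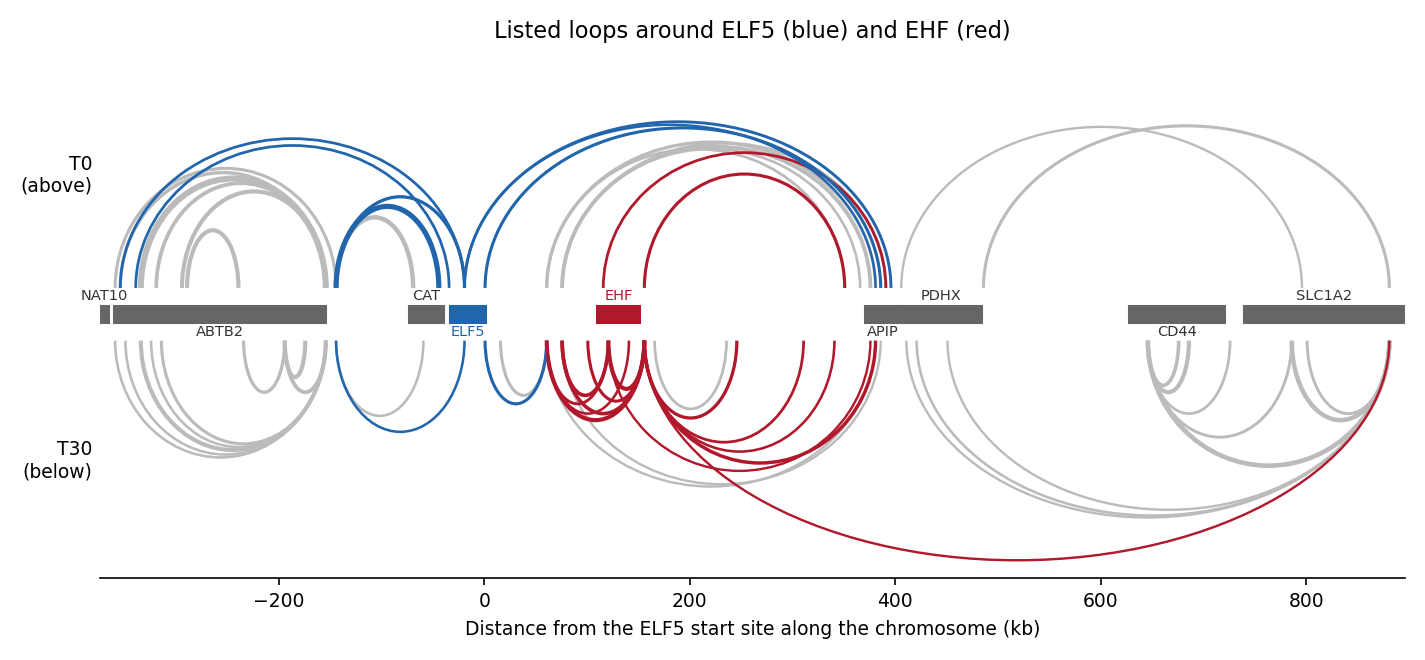
Loops around ELF5 and EHF drawn as arcs against distance from the ELF5 start site in kb (horizontal axis), T0 above the line and T30 below it; arc width grows with contacts, arc height with span, and grey arcs are other loops. Above the line ELF5 sends 7 arcs, 3 of them to APIP, and below the line EHF sends 13, of which 9 meet at the bin beyond its end.

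SPDEF had the fewest loops. In T0 a bin over PACSIN1, at 34525001, was joined to ILRUN at 34605001 with 18 contacts over 80 kb. In T30 a neighbouring pair, 34530001 and 34600001, had 11 contacts over 70 kb. The second T30 loop joined the SPDEF start bin to 34575001 over 20 kb with 16 contacts. The lowest number of contacts listed in T0 at spans of 15 to 25 kb was 17, so a contact of this size could not be told from one that the T0 list leaves out.

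A loop at the bin of a start site was listed at 2 of the 4 genes in T0, ELF3 and ELF5, and at all 4 in T30. Over 15811 genes with a start site the share was 9.6% in T0 and 9.95% in T30. The number at the 4 genes is too small for a comparison with these shares.

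Loops with an end within 500 kb of a gene were counted without those of the 4 genes themselves. They went from 19 to 22 around EHF, from 21 to 18 around ELF5, from 15 to 21 around ELF3 and from 6 to 6 around SPDEF. The stretches around ELF5 and EHF overlap and share loops. All listed loops went from 457 to 573 on chromosome 11, from 612 to 768 on chromosome 1 and from 262 to 298 on chromosome 6. Among adjacent genes, APIP went from 9 loops to 5, CAT from 3 to 1, RNPEP from 10 to 9, GPR37L1 from 9 to 6, ILRUN from 3 to 2 and PACSIN1 from 2 to 1. The genes that shared most loops with a member were RNPEP with 10 of ELF3's 11 loops over both libraries, ABTB2 with 5 of ELF5's 9, APIP with 3 of EHF's 15 and ILRUN with all 3 of SPDEF's. Loops of neighbours that overlap the same bins are the same loops and are not separate observations.

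Contacts could be compared between the libraries only where a loop was listed in both. Over 1389 loops matched by their cluster ranges, the median ratio of T30 to T0 contacts was 0.667, and each pair was tested against it with an exact two-sided binomial test, Benjamini-Hochberg adjusted over all 1389. This compares the 2 libraries and not the conditions. It called 22 loops higher in T30 (1.58%) and 1 lower (0.072%). Without scaling the split was 6 higher and 41 lower, and with the ratio of expected contacts 153 higher and 0 lower. Of the 4 matched loops of the members, 0 were called, and 0 passed an unadjusted p of 0.05.

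Values are given for 3 of the 4. The strongest ELF3 loop, 48 contacts in T0 and 31 in T30, had a scaled log2 ratio of -0.05 (95% interval -0.75 to 0.64). The ELF3 loop with 16 and 14 contacts had a scaled log2 ratio of 0.39 (-0.75 to 1.52). Both of these ELF3 loops lie in the same cluster, and their bins near ELF3 were 10 kb apart between the libraries. The ELF5 loop with identical bins, 14 and 10 contacts, had 0.10 (-1.23 to 1.37). Each of these intervals includes changes of more than 1.5-fold in at least 1 direction, so a change of that size was not excluded for any of these loops. No EHF or SPDEF loop entered this comparison.

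The rest of the ETS family was counted by the same rule. Of 24 other ETS genes, T0 listed a loop at 8, T30 at 5 and both at 3. Over all protein-coding genes the shares were 27.3%, 32.2% and 17.9%, with more loops in T30 at 20.8% and fewer at 15.4%. More loops in T30 were listed at 3 of them, SPI1 (0 and 3), ETV3 (0 and 1) and ETV5 (1 and 2). Fewer were listed at 5, ETV4 (3 and 0), ETS2, FLI1 and SPIC (2 and 0 each) and ELK4 (1 and 0). SPI1, FLI1 and SPIC are best known from blood cells, and a listed loop is no measure of expression. The median difference was 0 loops, as over all genes.

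Among 20 genes of progesterone and prolactin signalling and of the alveolar programme in which ELF5 acts, T0 listed a loop at 5 and T30 at 8. The shares over all protein-coding genes were 27.3% and 32.2%. More loops in T30 were listed at 7 of the 20, beside 20.8% of all genes with more and 15.4% with fewer. PRLR, the prolactin receptor, went from 0 to 4, FOXA1, a forkhead factor, from 1 to 4, and STAT5B, which acts below that receptor, from 0 to 2. GATA3 went from 6 to 7, STAT5A from 3 to 4, and ID2 and TNFSF11, the RANKL gene, from 0 to 1 each. Fewer were listed at 2, CCND1 (6 and 3) and WNT4 (1 and 0). STAT5A and STAT5B are adjacent and can share loops. The median difference was 0.

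Of 20 further epithelial factors and secretory genes, T0 listed a loop at 12 and T30 at 10, beside 27.3% and 32.2% of all genes. GRHL2, a grainyhead factor of epithelial junctions, went from 10 loops to 18, ZNF750 from 1 to 4, TFF3 from 0 to 2, and AGR3 and CREB3L4, which act in secretory cells, from 1 to 2 and from 2 to 3. More were listed at 7 in all, beside 20.8% of all genes with more and 15.4% with fewer. Fewer were listed at 4, among them TP63, a basal cell factor, from 6 to 0, and OVOL2 and TFAP2A from 1 to 0 each. The median difference was 0. Of the luminal marker genes 7 of 9 carried a T0 loop and 6 a T30 loop, of basal markers 3 and 2 of 5, and of markers of other cells 2 and 2 of 3, beside 27.3% and 32.2% of all genes. These are few genes, and loops do not measure their expression.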

How the data were processed

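The data are 2 HiChIP loop lists from T47D cells, 1 library labelled T0 and 1 labelled T30. The deposited contacts are raw counts: whole numbers of read pairs that join a pair of 5 kb bins. The p-value and q-value of a loop were given by the authors after bias correction, per the file headers; every listed loop has a q-value under 0.05. A deposited fraction, the share of bin pairs in the cluster, was used only for the strongest ELF3 cluster. The submitters' processing notes name Bowtie and hg38/GRCh38. The names of the deposited files give FitHiC, a q-value of 0.05 and merging of near contacts. Its version, other settings and any pooling: not given in the sources used here. Every column of sample values was mapped (0 were not).

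Genes, starts and sequences came from RefSeq tables of GRCh38.p14. Loops were counted per gene body widened by 10 kb, and compared with 19970 protein-coding genes. Contacts of matched loops were tested with the two-sided exact binomial test, the median ratio being the null, and Benjamini-Hochberg adjusted at 0.05, after the script was tested on simulated data. Expected contacts were back-calculated on the assumption that the deposited p-value is a Poisson upper tail. Intervals are exact binomial at 95% and cover counting error only, since read pairs are not independent molecules. Alternatives were no widening, 25 kb, q under 0.01, at least 10 contacts, spans of at least 20 kb, lists of equal length, cluster ranges as ends, other matching and other scaling. Spans of at least 100 kb were added after the data were seen. Named are the 4 genes with every loop, genes at partner bins, adjacent genes, the genes sharing most loops, and the listed genes that differed most. The genes and lists were chosen with earlier results of these data known. A matched ELF3 loop and a listed epithelial gene are not reported here. The other samples of the series are not analysed here. Scripts ran in Python 3.11.15 with scipy 1.17.1, pandas 2.3.3, numpy 2.4.6 and, for plots, matplotlib 3.10.9.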

Additional observations from a re-analysis of the deposited data

How the results depend on the processing

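EHF had more loops in T30, and ELF5 fewer, under every alternative tried, while the difference at ELF3 and SPDEF was 0 under some. The difference in loops, T30 minus T0, was 4 at EHF and 0 at ELF3 with the gene body alone, and -3 at ELF5 with 25 kb on each side. With q under 0.01 it was 0 at ELF3, -3 at ELF5 and 0 at SPDEF, and with lists of equal length 0 at SPDEF. With spans of at least 100 kb, chosen after the data were seen, it was -1 at ELF3, 3 at EHF and 0 at SPDEF. SPDEF's difference in contacts changed sign to -7 with q under 0.01 and to -7 with lists of equal length. With the ratio of expected contacts, the strongest ELF3 loop changed sign to a log2 ratio of 0.94, and 1 matched loop of the members was called. The cause of these changes was not tested. No paired analysis was possible because each condition has 1 library. For the same reason no library could be left out. The lists hold only loops past a q-value, so a loop that is not listed may still have contacts, and a change in listing is not a change in contact frequency.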

Other observations

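The bin in SLC1A2 that EHF reached in T30, at 35390001 on chromosome 11, had 1 loop in T0 and 7 in T30. Its T0 loop led to PDHX with 13 contacts over 395 kb. In T30 it was joined to CD44, a cell adhesion gene, with 22 contacts over 235 kb, to 2 bins within SLC1A2 with 21 and 12 contacts, to 3 bins in PDHX with 9, 10 and 9 contacts, and to the bin beyond EHF with 9.

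The bin short of GPR37L1 that ELF3 reached in both libraries, at 202115001 on chromosome 1, had 5 loops with 119 contacts in T0 and 2 loops with 40 contacts in T30. In both libraries it was also joined to 201890001 at SHISA4, with 14 contacts in T0 and 9 in T30.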
